A study of Mus musculus with 8 samples.

Results

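The collagen genes described here were the 44 mouse genes whose symbol has the form Col, a type number, the letter a and a chain number, such as Col1a1 and Col4a2. They were chosen by name alone, out of 19938 genes that had at least 1 probe set annotated to a single gene symbol. They were measured by 46 probe sets, because Col6a5 and Col6a6 had 2 each, and for those genes the probe set with the higher mean over all arrays was kept. Grouped by structure, they comprised 11 fibrillar collagens, 6 chains of type IV, 3 other collagens of the basement membrane zone, 6 chains of type VI, 9 fibril-associated collagens with interrupted triple helices (FACIT), 3 network-forming collagens, 4 transmembrane collagens and 2 other collagens.

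RNA from 8 mouse colonic tumors was hybridised to Affymetrix arrays, 1 tumor per array. 3 tumors were induced by azoxymethane (AOM), a chemical colon carcinogen, in the distal colon of K-rasG12Dint mice, and 2 were induced by AOM in the distal colon of LSL-K-rasG12D/+ mice, which the sample titles call wt. 3 serrated tumors came from the proximal colon of K-rasG12Dint/Ink4a/Arf-/- mice, so K-rasG12Dint was shared by the serrated tumors and the first AOM group. The labels name no age, no promoter that drives a recombinase and no AOM treatment for the serrated tumors. Tumor type, carcinogen, colon segment and the Ink4a/Arf deletion thus cannot be told apart in any comparison with the serrated group. Against the LSL-K-rasG12D/+ tumors, alone or averaged with the other AOM group, the K-ras genotype label differs as well and cannot be told apart either. The groups are called K-rasG12D AOM, LSL AOM and serrated below, and their replicate numbers only name the arrays. The labels do not say whether the tumors of a group came from separate animals, so the p-values measure only the spread between these samples, part of which may be technical.

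Collagens are trimeric proteins wound into a triple helix. Fibrillar collagens such as types I, III and V form the tensile fibers of the stroma, type IV forms the sheet of the basement membrane under the epithelium and around vessels, and type VI forms beaded filaments near cells. In the gut most fibrillar collagen is made by fibroblasts and other mesenchymal cells. Each chain is hydroxylated, glycosylated, folded, trimmed and crosslinked by dedicated enzymes, and matrix metalloproteinases degrade the product.

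Levels are given on the log2 scale of the deposited normalized signal, so a difference of 1 is a doubling, and levels of different genes come from different probes and are not compared. The median level over all genes lay between 4.17 and 4.31 on the 8 arrays. Serrated replicate 1 stood apart in spread, its standard deviation across genes being 1.77, while the other 7 ranged between 2 and 2.13. Cdkn2a, the gene that encodes the products of the deleted Ink4a/Arf locus, read 5.39, 6.21 and 5.95 in K-rasG12D AOM, 3.59 and 4.28 in LSL AOM, and 4.01, 3.79 and 3.37 in serrated tumors. The serrated values lay below the K-rasG12D AOM values and overlapped the LSL AOM values. No label places its probes inside or outside the deleted part, so this reading does not settle the genotype. The epithelial markers Epcam, Cdh1, Vil1, Krt8, Krt18, Krt19, Krt20 and Cldn7 were above the array median on every array.

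Promoters of Col1a2, Col3a1 and Col4a1 are shown first, because they belong to genes on which the results turn and for which a promoter was matched. They are RefSeq sequences of build GRCm38.p6, read 5′ to 3′ in the gene's direction. Capitals mark matches, on either strand, to the CCAAT box (CCAAT or ATTGG), the TATA box (TATAAA), the GC box (GGGCGG) and the SMAD-binding element (CAGACA or TGTCTG), none of which overlapped another in these sequences. For Col1a2 (chr6:4505368-4505617, plus strand) and Col3a1 (chr1:45311288-45311537, plus strand) the sequence is the 250 bases before the gene's start.
Col1a2: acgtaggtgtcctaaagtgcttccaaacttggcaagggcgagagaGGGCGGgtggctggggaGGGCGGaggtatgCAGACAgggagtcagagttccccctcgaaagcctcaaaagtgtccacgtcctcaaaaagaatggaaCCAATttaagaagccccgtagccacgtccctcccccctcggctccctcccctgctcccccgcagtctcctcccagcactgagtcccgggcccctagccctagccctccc
Col3a1: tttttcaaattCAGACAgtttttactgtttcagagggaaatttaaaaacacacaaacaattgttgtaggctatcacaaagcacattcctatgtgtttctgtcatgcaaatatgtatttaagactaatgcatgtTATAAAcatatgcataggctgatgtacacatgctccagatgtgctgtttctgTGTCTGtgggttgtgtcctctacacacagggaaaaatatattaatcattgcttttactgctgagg
For Col4a1 (chr8:11312955-11312983, minus strand) only the 29 bases around its CCAAT-box match are shown, 129 to 157 bases before its start.
Col4a1: tgcttgcccgggATTGGcgagccaagggg
Col4a1 and Col4a2 lie on opposite strands and overlap at their 5′ ends, with starts 21 bases apart. The 250 bases before each start therefore have no base in common, and the Col4a1 stretch shown lies within the Col4a2 gene. A promoter was matched for 35 of the 44 collagen genes, and none for Col1a1, Col5a2 or Col12a1. A CCAAT-box match was found in 34.3% of these 35 windows and in 33.8% of all 32851 mouse windows, a TATA-box match in 14.3% and 12.4%, a SMAD-element match in 22.9% and 17.1%, and a GC-box match in 60% and 32.7%. The collagen shares took a single window per gene, while the shares over all windows took every window listed, so the sets are not matched. These letter matches describe the DNA and do not show that a factor binds there.

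In serrated tumors 6 collagen genes fell relative to the AOM tumors, and none rose. They were 4 fibrillar chains, Col1a1, Col1a2, Col3a1 and Col5a2, and the pair of type IV chains found in nearly all basement membranes, Col4a1 and Col4a2. Their levels in serrated tumors were 36.1% to 41.1% of those in AOM tumors. The serrated mean was compared with the average of the AOM group means, using limma and Benjamini-Hochberg adjustment over all 19938 genes, and a gene passed at an adjusted p under 0.05. The 6 genes were 13.6% of the 44, all lower, while 5.76% of all genes passed lower, 3.62% passed higher and 9.38% passed in either direction. At an unadjusted p under 0.05, 9 collagens and 24.7% of all genes passed. The median log2 difference over the 44 genes was 0.08, against 0.04 over all genes, and 19 collagen genes were lower and 25 higher in serrated tumors. The 6 calls rested on few arrays, and the calls lost over all genes in the same refits are not given. Without serrated replicate 2 none of the 6 passed (adjusted p from 0.0753 to 0.117). Without LSL AOM replicate 1 only Col1a1 did, without K-rasG12D AOM replicate 2 Col1a2, Col3a1 and Col5a2 did not (0.0506 to 0.066), and Col1a2 and Col5a2 did not without K-rasG12D AOM replicate 3 or serrated replicate 1. In each of these refits all 6 differences stayed at or below -1.04. In whole tumors, fewer cells of a type and less RNA per cell cannot be told apart.

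**Figure D1:**
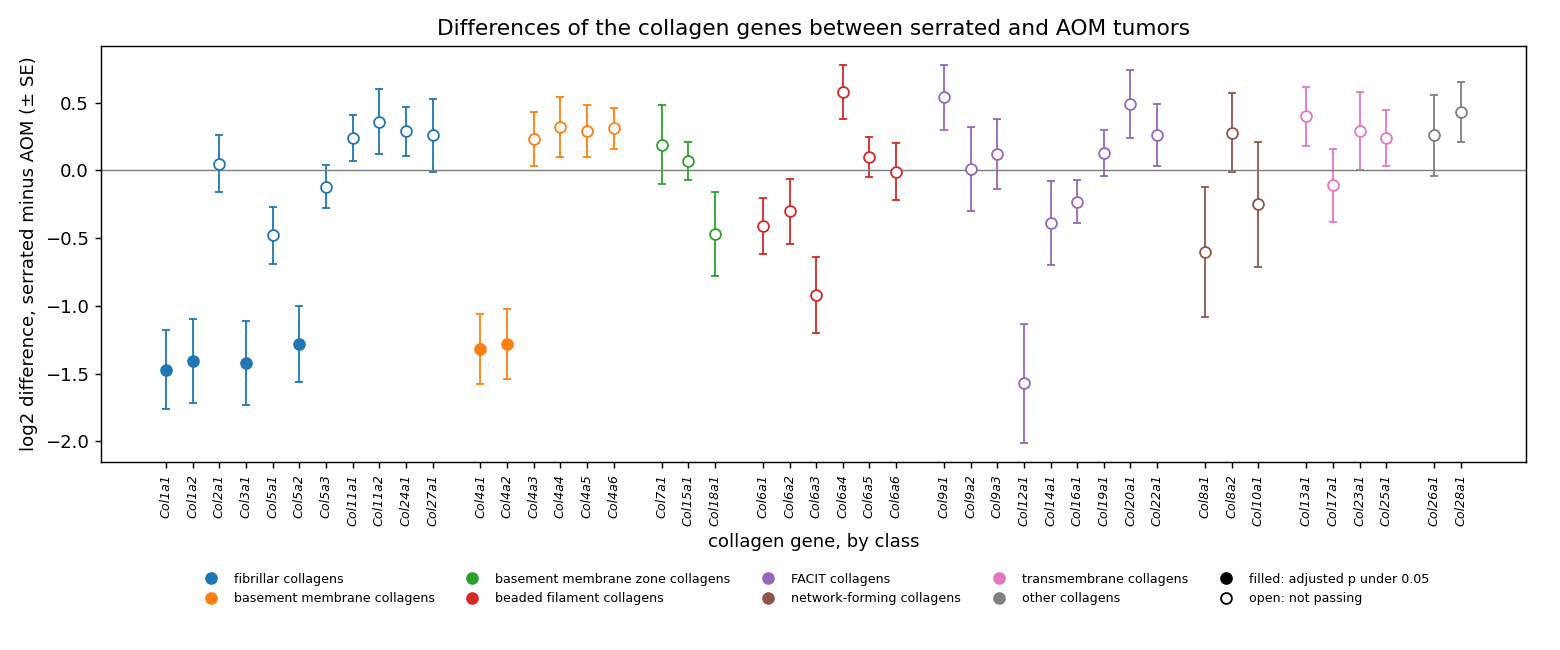
The log2 difference (serrated minus AOM, vertical axis, bars ± SE from the limma fit) of each of the 44 collagen genes (horizontal axis), coloured by class, with filled points for adjusted p under 0.05. The 6 filled points lie between -1.47 and -1.28, Col12a1 lies at -1.57 without passing, and most of the other genes lie within 0.6 of 0.

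Type I collagen, the main fiber of the stroma, is built of 2 chains from Col1a1 and 1 from Col1a2. Col1a1 (probe set 10380419) read 9.08, 9.82 and 9.69 in K-rasG12D AOM, 10.19 and 9.10 in LSL AOM, and 7.93, 7.98 and 8.45 in serrated tumors. All 3 serrated values lay below all 5 AOM values. The difference was -1.47 ± 0.29 (SE), or 2.77-fold lower, with an adjusted p of 0.0161 in limma. Col1a2 (probe set 10536220), whose promoter is the first shown above, read 8.36, 9.05 and 8.90 in K-rasG12D AOM, 9.54 and 8.32 in LSL AOM, and 7.15, 7.27 and 7.92 in serrated tumors. Its serrated values were again the 3 lowest, by 2.65-fold on average (-1.41 ± 0.31, adjusted p = 0.0273 in limma). For both chains LSL AOM replicate 1 was the highest array and serrated replicate 3 the highest of the serrated group.

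Col3a1 encodes type III collagen, which forms thin fibers together with type I, and Col5a2 a chain of type V, which is incorporated into type I fibers and limits their width. Col3a1 (probe set 10346015) read 7.86, 8.81 and 8.22 in K-rasG12D AOM, 9.38 and 8.23 in LSL AOM, and 7.07, 6.87 and 7.46 in serrated tumors. Col5a2 (probe set 10354309) read 6.09, 6.93 and 6.47 in K-rasG12D AOM, 6.87 and 5.93 in LSL AOM, and 4.92, 4.99 and 5.58 in serrated tumors. For both genes every serrated value lay below every AOM value. Col3a1 fell by 1.42 ± 0.31 (adjusted p = 0.0247, limma) and Col5a2 by 1.28 ± 0.28 (adjusted p = 0.0264, limma). These genes are neighbours on chromosome 1. The partner chain Col5a1 differed by -0.48 ± 0.21 and did not pass (adjusted p = 0.205), and it read 5.29 to 5.69 in serrated and 5.52 to 6.24 in AOM tumors, which overlap.

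The other 6 fibrillar genes, Col2a1, Col5a3, Col11a1, Col11a2, Col24a1 and Col27a1, did not pass, with differences from -0.12 (Col5a3) to 0.36 (Col11a2). Col2a1, the main collagen of cartilage, differed by 0.05 ± 0.21. Of the 11 fibrillar collagens 4 fell, 0 rose and 7 did not pass, and the median difference of the class was -0.12.

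Col4a1 and Col4a2 encode the chains of the common type IV network. Col4a1 (probe set 10576973) read 6.74, 7.57 and 7.08 in K-rasG12D AOM, 7.97 and 7.04 in LSL AOM, and 5.76, 6.04 and 6.19 in serrated tumors. Col4a2 (probe set 10570068) read 6.65, 7.46 and 7.14 in K-rasG12D AOM, 7.46 and 6.51 in LSL AOM, and 5.66, 5.68 and 5.92 in serrated tumors. Each of the 3 serrated values of both genes lay below every AOM value. Col4a1 fell by 1.32 ± 0.26 (adjusted p = 0.0178, limma) and Col4a2 by 1.28 ± 0.26 (adjusted p = 0.0183, limma). These differences were close, as were those of Col1a1 and Col1a2 (-1.47 and -1.41). K-rasG12D AOM minus LSL AOM was -0.38 for Col4a1 and 0.10 for Col4a2, and neither passed. Any part of the overlap of these genes at their starts was not tested.

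The other type IV chains, Col4a3, Col4a4, Col4a5 and Col4a6, make the networks of kidney, lung, skin and smooth muscle basement membranes. They did not pass and differed by 0.23 to 0.32, and Col4a3, Col4a5 and Col4a6 were below the array median on every array. The 3 serrated values of Col4a6 (3.18 to 3.34) lay above its 5 AOM values (2.80 to 3.15), at an adjusted p of 0.229 in limma. All 3 serrated values were above all AOM values for 2 collagen genes, Col4a6 and Col6a4, and below for 7, the 6 that fell and Col6a3. Over all genes, 7.24% were wholly above and 8.93% wholly below.

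**Figure D2:**
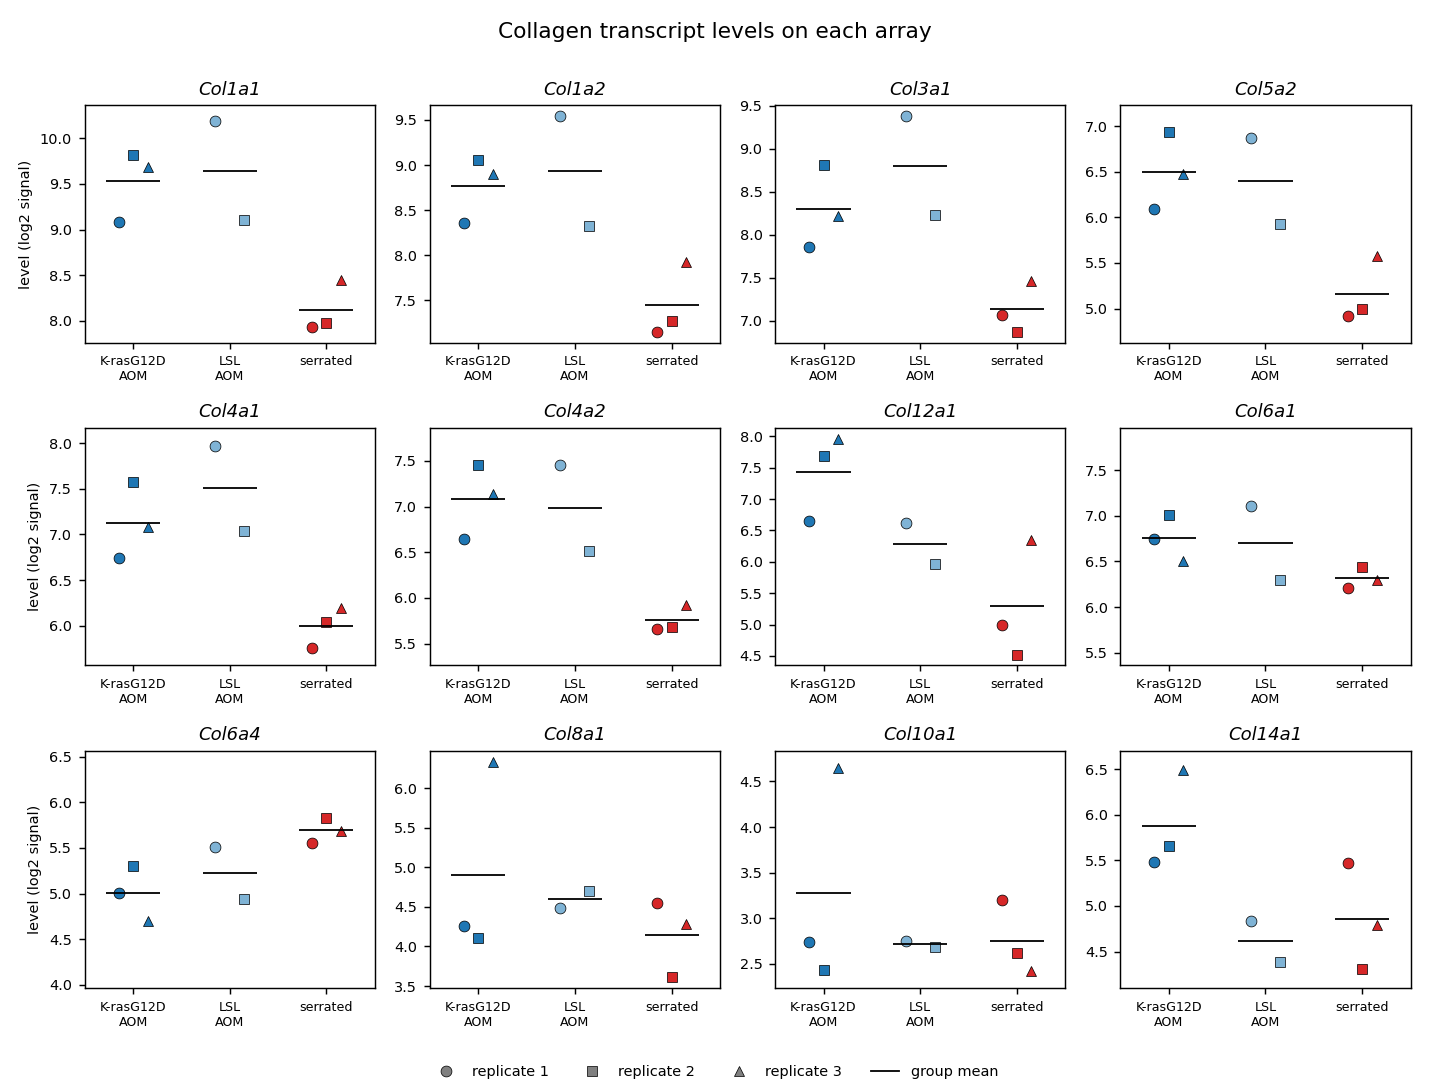
Log2 level (vertical axes, each spanning its own range) of 12 collagen genes on each of the 8 arrays, with groups on the horizontal axes, symbols for the replicate and lines for the group means. The serrated points lie below all AOM points for Col1a1, Col1a2, Col3a1, Col5a2, Col4a1 and Col4a2, overlap them for Col12a1 and Col6a1, and lie above them for Col6a4, while K-rasG12D AOM replicate 3 is far above the other arrays for Col8a1 and Col10a1.

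The basement membrane zone also holds Col7a1, the anchoring fibril, and Col15a1 and Col18a1, which carry heparan or chondroitin sulfate chains and link the membrane to the stroma. None of the 3 passed. Col18a1 read 6.02, 7.05 and 6.32 in K-rasG12D AOM, 7.03 and 6.15 in LSL AOM, and 5.61, 6.03 and 6.51 in serrated tumors, which overlap (-0.47 ± 0.31, adjusted p = 0.388). Col15a1 was nearly level, at 5.30, 5.32 and 5.56 in K-rasG12D AOM, 5.19 and 5.37 in LSL AOM, and 5.38, 5.48 and 5.35 in serrated tumors. Its difference was 0.07 ± 0.14, and Col7a1 differed by 0.19 ± 0.29.

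None of the 6 type VI genes passed. Type VI filaments are assembled mainly from the chains of Col6a1, Col6a2 and Col6a3. Col6a1 read 6.75, 7.01 and 6.50 in K-rasG12D AOM, 7.11 and 6.30 in LSL AOM, and 6.21, 6.44 and 6.30 in serrated tumors. Col6a2, its neighbour on chromosome 10, read 6.59, 6.80 and 6.46 in K-rasG12D AOM, 7.09 and 6.04 in LSL AOM, and 6.30, 6.45 and 6.12 in serrated tumors. The groups overlapped for both, with differences of -0.41 ± 0.21 (adjusted p = 0.266) for Col6a1 and -0.30 ± 0.24 (adjusted p = 0.463) for Col6a2. Col6a3 was lower on every serrated array (5.26 to 5.55) than on any AOM array (5.76 to 6.98), at -0.92 ± 0.28 and an adjusted p of 0.0784. Col6a4 went the other way, at 5.56 to 5.83 against 4.70 to 5.51, with a difference of 0.58 ± 0.20 and an adjusted p of 0.105. After quantile normalization between arrays Col6a4 passed (0.78, adjusted p = 0.0323). Col6a5 and Col6a6 differed by 0.10 and -0.01.

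Whether Col1a1, Col4a1 and Col6a1 differed in size of change was tested on 3 pairs within each array. This removes any shift shared by all genes of an array, but not a difference in spread such as that of serrated replicate 1. Col1a1, Col4a1 and Col6a1 are the members of highest mean level in the fibrillar, type IV and type VI classes. This test was chosen after the values were seen. In serrated tumors Col1a1 minus Col6a1 was 1.80 ± 0.32 (SD, n = 3), and in AOM tumors it was 2.84 ± 0.33 (SD, n = 5), a change of -1.04. Col4a1 minus Col6a1 was -0.32 ± 0.18 (SD, n = 3) and 0.54 ± 0.33 (SD, n = 5), a change of -0.86. In both pairs the serrated arrays were the 3 lowest, which gives the smallest p that 56 arrangements allow in a two-sided exact permutation test, 0.0357, or 0.0536 adjusted over the 3 pairs. Col1a1 minus Col4a1 changed by -0.18, with a two-sided exact permutation p of 0.286. The larger differences of Col1a1 and Col4a1 than of Col6a1 thus did not pass after adjustment, and the smallest possible p is 0.0571 with an AOM array left out and 0.0952 with a serrated array left out.

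FACIT collagens sit on the surface of fibers or stand alone, and of the 9 genes none passed against all AOM tumors. Col12a1 (probe set 10595211), whose product binds type I fibers and is found in tissues under strain, had the largest difference of all 44 genes. It read 6.65, 7.69 and 7.96 in K-rasG12D AOM, 6.62 and 5.96 in LSL AOM, and 5.0, 4.52 and 6.35 in serrated tumors. Serrated replicate 3 lay above LSL AOM replicate 2, and the difference was -1.57 ± 0.44 (adjusted p = 0.0608). Against the K-rasG12D AOM tumors alone the groups did not overlap and Col12a1 fell by 2.15 ± 0.49 (adjusted p = 0.0381, limma), while against LSL AOM it differed by -1.0 ± 0.55 (adjusted p = 0.355). The difference between those 2 contrasts is the contrast of the AOM groups, 1.15 ± 0.55, which did not pass (adjusted p = 0.656).

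Col16a1 read 5.38, 5.46 and 5.50 in K-rasG12D AOM, 5.57 and 5.34 in LSL AOM, and 5.48, 5.19 and 4.98 in serrated tumors, and differed by -0.23 ± 0.16 (adjusted p = 0.405). Col14a1, a relative of Col12a1 that also binds fibers, read 5.48, 5.66 and 6.49 in K-rasG12D AOM, 4.84 and 4.39 in LSL AOM, and 5.47, 4.31 and 4.79 in serrated tumors. It is given here because it had the largest difference among the 44 between the AOM groups, and was chosen after its values were seen. Col9a1, Col9a2, Col9a3, Col19a1, Col20a1 and Col22a1 differed by 0.01 (Col9a2) to 0.54 (Col9a1) between serrated and AOM tumors and did not pass.

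The network-forming Col8a1, Col8a2 and Col10a1 make short-chain collagens, the first pair found around vessels and in the eye and the last in cartilage that turns to bone. Col8a1 read 4.26, 4.11 and 6.34 in K-rasG12D AOM, 4.49 and 4.70 in LSL AOM, and 4.55, 3.61 and 4.28 in serrated tumors. Col8a2 read 3.80, 3.67 and 4.20 in K-rasG12D AOM, 3.89 and 4.50 in LSL AOM, and 4.92, 4.36 and 3.68 in serrated tumors. The groups overlapped for both genes, and only K-rasG12D AOM replicate 3 was far from the rest for Col8a1. The differences were -0.60 ± 0.48 for Col8a1, 0.28 ± 0.29 for Col8a2 and -0.25 ± 0.46 for Col10a1, and none passed. Without K-rasG12D AOM replicate 3 the Col10a1 difference was 0.10.

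Transmembrane collagens span the cell membrane, and 4 were measured. Col13a1, found at cell adhesions, read 4.28, 4.04 and 4.18 in K-rasG12D AOM, 3.69 and 4.09 in LSL AOM, and 4.78, 4.61 and 3.89 in serrated tumors. Col23a1 read 5.0, 4.92 and 5.19 in K-rasG12D AOM, 4.34 and 5.22 in LSL AOM, and 5.67, 5.40 and 4.53 in serrated tumors. For both genes serrated replicates 1 and 2 were the highest of the 8 arrays and replicate 3 lay within the AOM range. The differences, 0.40 ± 0.22 for Col13a1 and 0.29 ± 0.29 for Col23a1, did not pass. Col17a1, a hemidesmosome component, differed by -0.11 and Col25a1 by 0.24. The other collagens were Col26a1, which read 4.34 to 4.97 in K-rasG12D AOM, 3.70 and 4.78 in LSL AOM and 4.27 to 5.12 in serrated tumors, and Col28a1, which read 2.56 to 3.10, 2.17 and 2.44, and 2.68 to 3.47. They differed by 0.26 ± 0.30 and 0.43 ± 0.22 and did not pass.

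The direction of a difference went with the brightness of the probe set, among the collagens as over all genes. Of the 44 genes, 29 had a mean level above the mean array median of 4.23. Among these, 6 fell (20.7%) and the median difference was -0.23, beside 10.4% falling and a median of -0.19 over all 10068 genes above that level. Of the 15 genes at or below it, 13 were higher in serrated tumors, as were 7375 of all 9870 such genes. None of the 15 passed in either direction, while 1.05% of the 9870 fell and 1.44% rose. The median difference was 0.29 for the 15 and 0.14 for the 9870. Serrated replicate 1 was the highest of the 8 arrays for 11 of these 15 genes (73.3%), beside 50.1% of all genes at or below that level. It was also the array with the narrowest spread of levels, and the part of that spread in the differences of dim collagens was not tested. Without serrated replicate 1 the count of collagens that passed was 4, all among the 6.

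**Figure D3:**
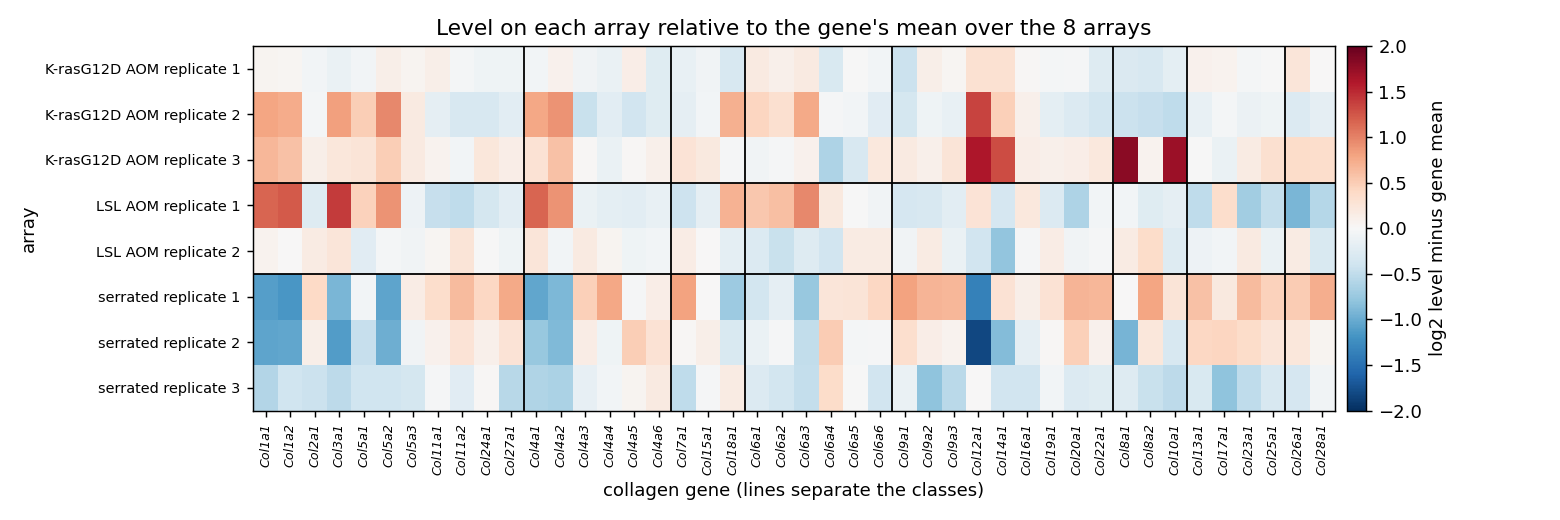
Log2 level of each of the 44 collagen genes (horizontal axis) on each array (vertical axis) minus the gene's mean over the 8 arrays, in red above and blue below that mean and cut at 2. Col1a1, Col1a2, Col3a1, Col5a2, Col4a1 and Col4a2 are blue on all 3 serrated arrays, LSL AOM replicate 1 is the reddest array for most of them, and serrated replicate 1 is red for many of the dimmer genes.

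Set against each AOM group apart, fewer collagens passed. The contrasts share the 3 serrated arrays and so are not independent. Against K-rasG12D AOM 4 genes fell, Col1a1, Col5a2, Col4a2 and Col12a1 (9.09% of the 44, beside 3.99% of all genes lower, 2.46% higher and 6.45% in either direction). Against LSL AOM 3 fell, Col1a1, Col3a1 and Col4a1 (6.82%, beside 3.4% lower, 2.31% higher and 5.71% in either direction). At an unadjusted p under 0.05, 11 collagens passed against K-rasG12D AOM and 8 against LSL AOM, beside 21.8% and 20.3% of all genes. Col1a1 was the gene in both sets, at -1.41 ± 0.32 (adjusted p = 0.035, limma) and -1.53 ± 0.35 (adjusted p = 0.0414, limma). Col1a2 lay just outside in both, at -1.33 ± 0.35 (adjusted p = 0.0585) and -1.49 ± 0.39 (adjusted p = 0.0622). Against K-rasG12D AOM none of the 4 passed without K-rasG12D AOM replicate 2 or 3 or serrated replicate 1 or 2 (adjusted p from 0.0504 to 0.165), although Col14a1 then passed without serrated replicate 1. Col5a2 did not pass without K-rasG12D AOM replicate 1 (0.0624), and Col12a1 did not without either LSL AOM array (0.0626). Against LSL AOM none of the 3 passed without LSL AOM replicate 1 (0.251 to 0.296), LSL AOM replicate 2 (0.0522 to 0.0548), serrated replicate 2 (0.0961 to 0.13) or K-rasG12D AOM replicate 3 (0.0593 to 0.0698). Only Col4a1 passed there without K-rasG12D AOM replicate 1 or serrated replicate 1, and Col1a1 did not without K-rasG12D AOM replicate 2 (0.0632). With a group reduced to 1 array, that array was taken to vary like the others.

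Between the AOM groups, which differ in the label of the genotype, 0 of the 44 collagens passed in limma, as did 0 of all genes (0%). The collagen count was 0 under all 16 alternatives, in which up to 0.291% of all genes passed. At an unadjusted p under 0.05, 1 collagen (Col14a1) and 8.36% of all genes passed. Col14a1 was higher in K-rasG12D AOM by 1.27 ± 0.39 (adjusted p = 0.392), and its 3 values there lay above both LSL AOM values. For the 6 genes that were lower in serrated tumors, the K-rasG12D AOM minus LSL AOM difference ranged from -0.51 ± 0.38 (Col3a1) to 0.10 ± 0.35 (Col5a2).

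Genes that act on collagen were examined next. Of 62 genes listed for 5 roles 59 were measured, and in serrated against all AOM tumors 14 fell, 1 rose and 44 did not pass. That was 23.7% lower beside 5.76% of all genes, and the median log2 difference of the 59 was -0.56 beside 0.04. Over the 10068 genes above the mean array median, where many but not all of the 59 lie, 10.4% fell and the median was -0.19. The lists were chosen with earlier results of these data known, so these shares are descriptive only. Colgalt1, Thbs1, Fn1, Ddr1, Mmp14 and Mmp9 passed whichever array was left out. The other 9 lost their call without serrated replicate 2 (adjusted p from 0.0643 to 0.164) and without LSL AOM replicate 1 (0.0727 to 0.146), and 5 to 8 of them without any other array except serrated replicate 3.

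Of the 19 genes for modification and folding 5 fell, 0 rose and 14 did not pass, with a median of -0.56. Colgalt1, which adds galactose to hydroxylysine of collagen, read 7.37, 6.98 and 7.42 in K-rasG12D AOM, 8.20 and 7.83 in LSL AOM, and 5.95, 5.74 and 6.55 in serrated tumors. Its groups did not overlap, and it fell by 1.55 ± 0.22 (adjusted p = 0.0044, limma). The lysyl hydroxylases Plod1 (-1.10 ± 0.22, adjusted p = 0.019 in limma) and Plod3 (-1.02 ± 0.26, 0.043), the prolyl hydroxylase subunit P4ha2 (-1.04 ± 0.23, 0.028) and Serpinh1, the collagen chaperone also called HSP47 (-0.85 ± 0.21, 0.0407), fell as well. Plod3 is named beyond the naming rule because it passed. Plod3 and Serpinh1 did not pass with the arrays shifted to a common median (0.063 and 0.0571), nor P4ha2 and Serpinh1 after quantile normalization (0.0516 and 0.0896). Plod2, which acts on the ends of the chain, passed against K-rasG12D AOM (-1.54 ± 0.38, adjusted p = 0.0497, limma). Against LSL AOM P3h2, a prolyl 3-hydroxylase of type IV collagen, rose by 1.01 ± 0.19 (adjusted p = 0.0207, limma), and was named after its values were seen.

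Of the 9 genes for processing and crosslinking 1 fell, 0 rose and 8 did not pass, with a median of -0.04. Bmp1, the protease that removes the C-terminal end of fibrillar procollagens, read 6.54, 7.08 and 7.11 in K-rasG12D AOM, 6.13 and 6.29 in LSL AOM, and 5.56, 5.53 and 6.01 in serrated tumors. It fell by 0.86 ± 0.19 (adjusted p = 0.0282, limma). Lox, which oxidises lysine so that fibers can crosslink, read 6.0, 6.88 and 6.54 in K-rasG12D AOM, 6.04 and 4.95 in LSL AOM, and 3.20, 4.06 and 5.42 in serrated tumors. Serrated replicate 3 lay above LSL AOM replicate 2, and the difference was -1.76 ± 0.48 (adjusted p = 0.0534), while against K-rasG12D AOM alone Lox fell by 2.25 ± 0.53 (adjusted p = 0.0413, limma). Pcolce differed by -0.76 ± 0.37 and Loxl1 by -0.49 ± 0.25, and neither passed.

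Of the 15 matrix proteins that bind collagen 3 fell, 0 rose and 12 did not pass, with a median of -0.88. Thbs1, a thrombospondin, fell by 2.24 ± 0.31 (adjusted p = 0.00402, limma). Fn1, fibronectin, on which type I fibers are laid down, read 9.20, 9.71 and 10.26 in K-rasG12D AOM, 9.86 and 8.98 in LSL AOM, and 7.42, 7.49 and 8.06 in serrated tumors. No serrated value reached the lowest AOM value, and Fn1 fell by 1.92 ± 0.30 (adjusted p = 0.00631, limma). Sparc, a chaperone-like binder of types I and IV, fell by 1.11 ± 0.27 (adjusted p = 0.037, limma). Tnc, tenascin C, differed by -1.41 ± 0.44 (adjusted p = 0.0828).

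Of the 9 collagen receptors 2 fell, 1 rose and 6 did not pass, with a median of -0.37. Ddr1, a receptor tyrosine kinase of epithelial cells, fell by 0.91 ± 0.15 (adjusted p = 0.00915, limma), and Itga1, the integrin chain that prefers type IV collagen, by 1.64 ± 0.38 (adjusted p = 0.0318, limma). Itga2, the integrin chain that prefers type I, read 6.92, 7.02 and 7.15 in K-rasG12D AOM, 6.83 and 6.29 in LSL AOM, and 7.34, 7.52 and 8.30 in serrated tumors. It rose by 0.93 ± 0.24 (adjusted p = 0.0458, limma). Itgb1, the shared beta chain, differed by -0.55 ± 0.18 (adjusted p = 0.0912).

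Of the 7 collagen-degrading enzymes 3 fell, 0 rose and 4 did not pass, with a median of -1.50. Mmp14, the membrane-bound collagenase that also activates Mmp2, read 9.26, 9.76 and 9.36 in K-rasG12D AOM, 9.11 and 8.84 in LSL AOM, and 6.53, 6.34 and 7.46 in serrated tumors. It fell by 2.44 ± 0.27 (adjusted p = 0.00133, limma), and its groups did not overlap. The gelatinases Mmp9 (-2.17 ± 0.32, adjusted p = 0.00539 in limma) and Mmp2 (-1.50 ± 0.33, 0.0252) fell too. The collagenase Mmp13 read 4.24 and 4.23 in serrated replicates 1 and 2 and 8.85 in serrated replicate 3, within the AOM range of 7.45 to 9.67, and did not pass (-2.65 ± 1.03, adjusted p = 0.149).

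**Figure D4:**
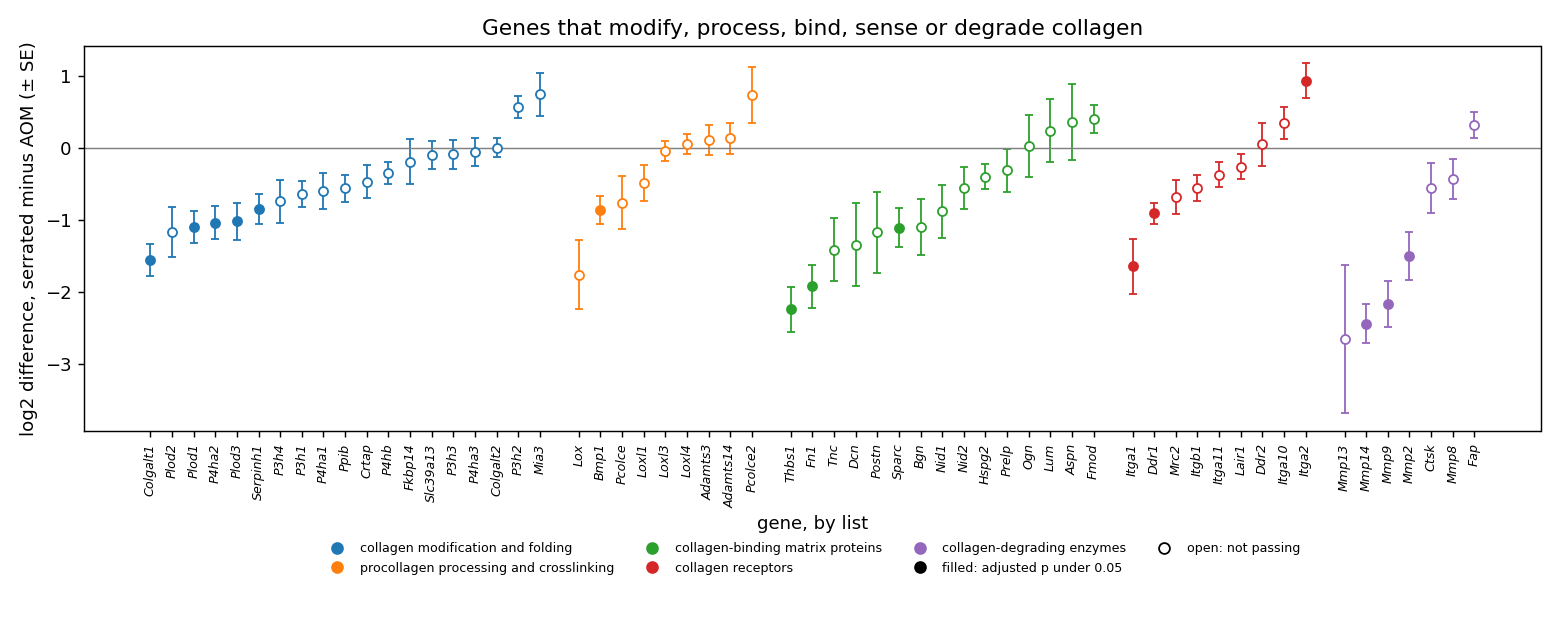
The log2 difference (serrated minus AOM, vertical axis, bars ± SE from the limma fit) of 59 genes that modify, process, bind, sense or degrade collagen (horizontal axis), with filled points for adjusted p under 0.05. Filled points lie below 0 for 14 genes, down to -2.44 for Mmp14, and above 0 for Itga2 alone.

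Against K-rasG12D AOM alone 11 of the 59 genes fell and 0 rose, beside 3.99% of all genes lower and 2.46% higher. Against LSL AOM 9 fell and 1 rose, beside 3.4% lower and 2.31% higher. Between the AOM groups 0 passed in limma, with 8 at an unadjusted p under 0.05, beside 8.36% of all genes. The counts that follow have no share of all genes beside them. With a single array left out the first count ran from 3 to 25 and that of LSL AOM from 0 to 22, highest in both without serrated replicate 3. It was lowest against K-rasG12D AOM without K-rasG12D AOM replicate 2 or 3 or serrated replicate 2, and against LSL AOM without LSL AOM replicate 1.

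Markers of cells that make or surround collagen were set beside these results, as mean log2 level of each list per array, and the markers named were chosen after their values were seen. Counts are for serrated against all AOM tumors, where 5.76% of all genes passed lower and 3.62% higher, unless another contrast is named. Without serrated replicate 2 only Cidec of the 7 markers that passed did so, and without LSL AOM replicate 1 only Cidec and C1qa did. None of the 10 fibroblast markers passed, and their mean level was 4.63 to 5.04 in serrated and 4.80 to 6.10 in AOM tumors, which overlap. In this list 7 genes were lower and 3 higher in serrated tumors, from -1.79 to 0.47, with a median difference of -0.49. These counts were 8 and 2 against K-rasG12D AOM, and 6 and 4 against LSL AOM. Pdgfra differed by -0.92 ± 0.27 (adjusted p = 0.0676) and Pdgfrb by -0.99 ± 0.29 (adjusted p = 0.0693), and Mfap5 was below the array median throughout. Against K-rasG12D AOM 1 fibroblast marker, Twist1, fell. None of the 7 smooth muscle markers (5.21 to 6.20 in serrated, 5.02 to 5.79 in AOM), the 8 endothelial markers (4.31 to 5.19 and 4.23 to 4.99) or the 5 pericyte markers (4.51 to 4.93 and 4.26 to 5.19) passed. Of the 7 macrophage markers 4 fell, C1qa, C1qb, Cd68 and Csf1r, and the list was at 4.66 to 5.30 in serrated and 5.48 to 6.20 in AOM tumors, without overlap. All 7 were lower, and 4 fell against K-rasG12D AOM but 1, C1qa, against LSL AOM. Of the 8 epithelial markers only Krt20 passed, higher, and the list was at 10.24 to 10.46 in serrated and 9.71 to 9.97 in AOM tumors, again without overlap. Krt20 had by far the largest difference of these markers, 2.53 beside a median of 0.25, with 7 higher and 1 lower. The list level without Krt20 was not computed. Whether the amounts of macrophages or epithelium differed was not tested, nor was their part in the lower collagen levels. None of the 6 leukocyte markers (4.26 to 5.01 and 4.43 to 5.26) and none of the 4 enteric glia markers, all 4 below the array median throughout, passed. Against LSL AOM the T cell marker Cd3g rose by 1.59 ± 0.37 (adjusted p = 0.0417, limma). Of the 5 cartilage markers Sox9, which colon epithelium also expresses, fell and Acan, Matn1, Comp and Hapln1 were below the array median. Of the 5 adipocyte markers Cidec rose and Adipoq, Plin1 and Lep were below the array median.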

How the data were processed

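The deposited table holds 35557 probe sets for 8 arrays. Its values are log2 signals that the authors made with GCOS and RMA, per the submitters' processing notes, and the array's chip annotation gave 21789 probe sets exactly 1 symbol, 1621 several and 12147 none. Versions of those tools are not given in the sources used here. Genes took the probe set of highest mean, which left 19938. With limma 3.58.1 in R 4.3.3, the 3 group means were fitted over all 8 arrays (lmFit, contrasts.fit, eBayes, 5 residual degrees of freedom), with Benjamini-Hochberg adjustment over all genes and a threshold of 0.05. The fit was tested on simulated data. Differences between genes within arrays were tested by exact permutation in scipy 1.17.1.

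The genes named with full statistics are each collagen that passed in any contrast, the 2 of highest mean in each class, from each of the 5 pathway lists up to 4 by adjusted p against all AOM tumors and up to 2 that passed in each other contrast, and Cdkn2a. Members, pathway lists and the 10 marker lists were chosen with earlier results of these data known. The alternatives left out each array, rescaled arrays, dropped the dimmest 40% of genes, averaged probe sets, changed the variance model, weighted arrays or used only the arrays compared. The number of arrays limits the precision.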

Additional observations from a re-analysis of the deposited data

Results flagged for a closer look

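K-rasG12D AOM replicate 3 lay far above the other AOM tumors for 2 of the 44 collagens. Col8a1 read 6.34 there and 4.11 to 4.70 on the other 4 AOM arrays, a gap of 0.74 of the whole range. Col10a1 read 4.65 there and 2.43 to 2.75 on the others, a gap of 0.85 of the range. Both gaps exceed 0.71, the 95% critical value of Dixon's test for 5 values, which chance passes in about 1 of 20 groups, and 44 genes were checked.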

How the results depend on the processing

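No paired analysis was possible because the groups share no replicate number in the labels. Shares of all genes are not given for refits with 1 array left out, without the dimmest genes or with only the arrays compared. Whether collagens or pathway genes depended on single arrays more than all genes did was thus not tested. Counts of collagens that passed depended on single arrays. Against all AOM tumors the count was 6 and ran from 0 to 10 with 1 array left out, against K-rasG12D AOM it was 4 and ran from 0 to 7, and against LSL AOM it was 3 and ran from 0 to 8. For the pathway genes these counts were 15 (6 to 27), 11 (3 to 25) and 10 (0 to 22). With array weights the collagen counts rose to 15, 12 and 6 and the pathway counts to 32, 31 and 21, while 28.9%, 28.5% and 18.4% of all genes passed. In that fit serrated replicate 2 had a weight of 3.15 and serrated replicates 1 and 3 had 0.242 and 0.38. The serrated mean thus rested mostly on a single array. With arrays shifted to a common median, 1 collagen passed against K-rasG12D AOM and 1 against LSL AOM, and 6 pathway genes passed against K-rasG12D AOM, beside 5.39% and 5.13% of all genes in these contrasts. With the dimmest genes left out 5 collagens passed against LSL AOM. With only the arrays compared in the fit, 0 collagens and 3 pathway genes passed against LSL AOM. The cause of these shifts was not tested, beyond the smaller number of arrays or genes in some fits. Of all genes called against all AOM tumors 61.4% were lower, and 51.1% with the common median. Against K-rasG12D AOM these shares were 61.9% and 47.6%, and 51.7% after quantile normalization. Of the 44 collagens 11, none of which passed, changed sign against all AOM tumors with some array left out, 6 of them without serrated replicate 1. Among the 18 named by rule, Col8a2 ran from -0.02 (without serrated replicate 1) to 0.60 and Col26a1 from -0.01 (without LSL AOM replicate 1) to 0.53 with 1 array left out. The within-array pairs kept their direction with each array left out and after quantile normalization, alternatives added after seeing the data. Probes at the dim end carry little signal over background, which limits what the 15 dim collagens can show.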

Other observations

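K-rasG12D AOM replicate 3, the array on which Col8a1 and Col10a1 were highest, was examined further after those values were seen. On it 37 genes lay more than 1 log2 unit above every other array, Col8a1 and Col10a1 among them, and on the other arrays such genes numbered 5 to 156, with no collagen. The 37 included genes known from hair: Krtap13 read 4.13 against 1.56 to 1.90 elsewhere, Krt33a 4.98 against 1.66 to 3.04, and Gprc5d 4.0 against 1.74 to 2.17. Other arrays also had keratin genes far above the rest. Krt35 read 6.48 on LSL AOM replicate 2 against 2.87 to 3.84 elsewhere. On serrated replicate 2, without which none of the 6 collagen calls passed, Krt4 read 7.50 against 2.57 to 3.55 and Krt10 6.91 against 3.41 to 3.87. Any bearing of these genes on the collagen results was not tested. Of the 44 hair keratin-associated protein (Krtap) genes measured, 13 were highest on this array and 28 on serrated replicate 1, while of all genes at or below the mean array median 7.69% and 50.1% were highest on these arrays. The mean log2 Krtap level was 3.31 and 3.63 there, against 2.59 to 2.91 on the other 6 arrays.

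Twist1, a mesenchymal transcription factor on the fibroblast list, read 5.36, 7.91 and 8.28 in K-rasG12D AOM, 4.11 and 4.02 in LSL AOM, and 3.84, 3.85 and 3.81 in serrated tumors. It fell by 3.35 ± 0.63 in serrated against K-rasG12D AOM tumors (adjusted p = 0.0189, limma), but did not pass without K-rasG12D AOM replicate 2 or 3 or serrated replicate 2 (adjusted p from 0.051 to 0.0851). Between the AOM groups the difference was 3.12 ± 0.71 (adjusted p = 0.269).

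The second probe set of Col6a5 had a mean of 4.70 in AOM and 4.57 in serrated tumors, while the one used had 4.82 and 4.94, so the probe sets differed in direction.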
